A study of Mus musculus with 4 samples.

Results

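miR-9 is a microRNA (miRNA) of the nervous system that reaches the RNA-induced silencing complex (RISC) from both arms of its hairpin precursor. It was followed here through its 2 members, miR-9-5p, cut from the 5′ arm, and miR-9-3p, cut from the 3′ arm and often written miR-9*. Members were taken by name: every sequence that the deposited table assigns to mmu-miR-9-5p or mmu-miR-9-3p was kept. These were 468 sequences of miR-9-5p and 281 of miR-9-3p, 749 of the 40045 sequences with a miRNA name and of 85704 sequences in all, and 2 of 1029 miRNA names. The antisense miRNAs miR-9b-5p and miR-9b-3p were not members.

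The libraries come from an experiment on aging that asked how RISC-bound short RNAs (R-sRNAs) of the mouse brain differ between young and old animals. Cortex and hippocampus of male C57BL/6J mice (BL6 in the labels), with no transgene or treatment named, were combined for 2 libraries of young mice (2 months old) and 2 of old mice (18 months old). The Ago proteins and the RNA they hold were pulled down with a GW182 peptide before small RNA sequencing, so a level here is a share of the RISC-bound reads of a library and not of total cellular RNA. The labels do not say whether the replicates of an age are separate animals or pools, so p-values measure the spread between these libraries only. Behind the scaled values were 10484940 and 11388999 reads for the young mice, replicate 1 first, and 10575081 and 9067007 for the old mice. Levels are in CPM, read counts that the authors brought to 1 common total per library, and values for 4 libraries are always given in this order. In whole brain tissue, fewer cells of a type and less RNA per cell cannot be told apart.

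As background, a miRNA gene is transcribed into a hairpin that is cut to a short duplex. A strand of that duplex is loaded into an Ago protein and pairs with target mRNAs mainly through its seed, the bases just after its 5′ end. For most hairpins 1 strand is kept and the other is degraded. The duplex of miR-9 is known for giving a functional strand from each side: miR-9-5p targets the transcriptional repressor REST and the nuclear receptor TLX, and miR-9-3p targets the REST partner CoREST. With miR-124, miR-9-3p also lowers BAF53a during the change of chromatin complexes that comes with neuronal differentiation. miR-9 is abundant in neural progenitors and stays expressed in the adult brain.

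miR-9 is encoded by 3 separate genes, and the mature arms are the same at each, so a read of the usual length cannot be traced to its gene. In the mature sequences (RefSeq, build GRCm38.p6) the capitals mark positions 2 to 8, the 7mer seed, of which positions 2 to 7 are the 6mer seed used by the study:
miR-9-5p: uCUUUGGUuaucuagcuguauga
miR-9-3p: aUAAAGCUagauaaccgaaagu
The seeds of the 2 arms share no 6mer.

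The hairpins are shown because they differ outside the arms, in the loop and in the bases that flank the arms; here the capitals mark the mature arms:
Mir9-1: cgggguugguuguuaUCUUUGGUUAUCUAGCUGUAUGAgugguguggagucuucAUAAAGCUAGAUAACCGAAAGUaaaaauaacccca
Mir9-2: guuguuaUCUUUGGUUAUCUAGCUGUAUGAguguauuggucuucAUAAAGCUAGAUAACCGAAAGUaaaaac
Mir9-3: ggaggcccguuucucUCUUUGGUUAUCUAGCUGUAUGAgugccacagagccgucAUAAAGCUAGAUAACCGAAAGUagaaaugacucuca
Mir9-1 (chr3:88215598-88215686, plus strand) lies in an intron of Gm3764, a long noncoding RNA gene in the GENCODE annotation. Mir9-2 (chr13:83738814-83738885, plus strand) overlaps an exon of C130071C03Rik, also a long noncoding RNA gene. Mir9-3 (chr7:79505264-79505353, plus strand) lies in an intron of its host gene Mir9-3hg.

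Both arms were among the most abundant RISC-bound miRNAs of these brains at both ages. miR-9-5p stood at 42830 and 25548 CPM in the 2-month libraries and at 27655 and 43876 CPM in the 18-month libraries, which put it 4th of all miRNAs by mean level. 1 library of each age was high (2-month replicate 1 and 18-month replicate 2) and the other was low, so the ages overlapped. Counting error was small beside this spread: in 2-month replicate 1 the arm held 4.285% of the reads (95% Wilson interval 4.272 to 4.297), against 2.556% (2.547 to 2.565) in replicate 2. Such intervals cover counting error only.

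miR-9-3p stood at 20721 and 16248 CPM in the young libraries and at 18396 and 16866 CPM in the old libraries, which put it 10th of all miRNAs. It varied less than the other arm, with a highest to lowest ratio of 1.28 against 1.72 for miR-9-5p, and its ages overlapped too. Both arms together held 6.358% and 4.181% of the reads in the young libraries and 4.607% and 6.077% in the old libraries. The plot of levels by library shows both arms on the same CPM axis.

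**Figure D1:**
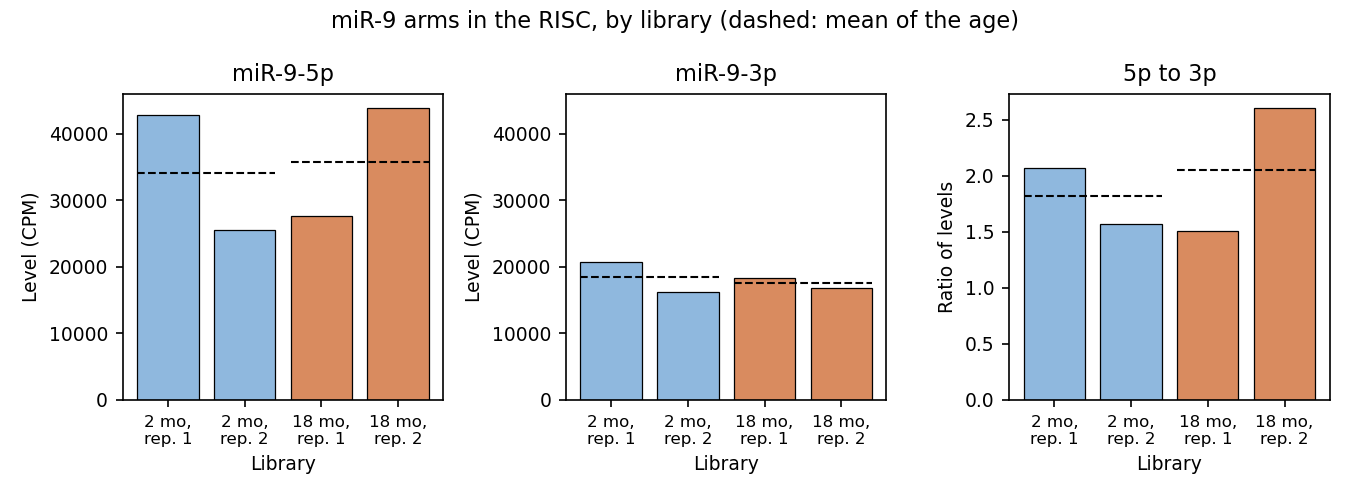
Levels of miR-9-5p and miR-9-3p (CPM, bars from 0) and their ratio in the 4 libraries, with 2-month libraries in blue, 18-month libraries in orange and the mean of each age (n = 2) as a dashed line. miR-9-5p is at 42830 and 43876 CPM in 1 library of each age and at 25548 and 27655 CPM in the other, whereas miR-9-3p stays between 16248 and 20721 CPM.

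Neither arm was called as changed with age. The mean of miR-9-5p was 34189 ± 12200 CPM in the young libraries and 35766 ± 11500 CPM in the old libraries (SD, n = 2 each). Its log2 change, 18 minus 2 months on the log2(CPM + 1) scale, was 0.07 (standard error 0.35, 95% interval -0.76 to 0.91, adjusted p = 0.929 from limma over 456 miRNAs). For miR-9-3p the means were 18484 ± 3160 and 17631 ± 1080 CPM, and the log2 change was -0.06 (standard error 0.23, interval -0.60 to 0.49, adjusted p = 0.919 from limma). A change as wide as these intervals remains possible for each arm. In the same fit 16.2% of all miRNAs passed the threshold that the study's methods set, a p under 0.05 without adjustment, with 19 higher and 55 lower in the old libraries.

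The direction of these small differences depends on the scale and on single libraries. The median miRNA had a log2 change of -0.22 in CPM and of -0.01 after rescaling by the median of ratios, which split the calls into 39 higher and 25 lower. After rescaling, the change of miR-9-5p was 0.29 and that of miR-9-3p turned to 0.15, both still without a call. For miR-9-5p the change was 0.45 without 2-month replicate 1 and 0.41 without 18-month replicate 1, and it was -0.30 without 2-month replicate 2 and -0.26 without 18-month replicate 2. That of miR-9-3p was 0.12 without 2-month replicate 1, -0.23 without 2-month replicate 2 and close to 0 (0.0037) without 18-month replicate 2.

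**Figure D2:**
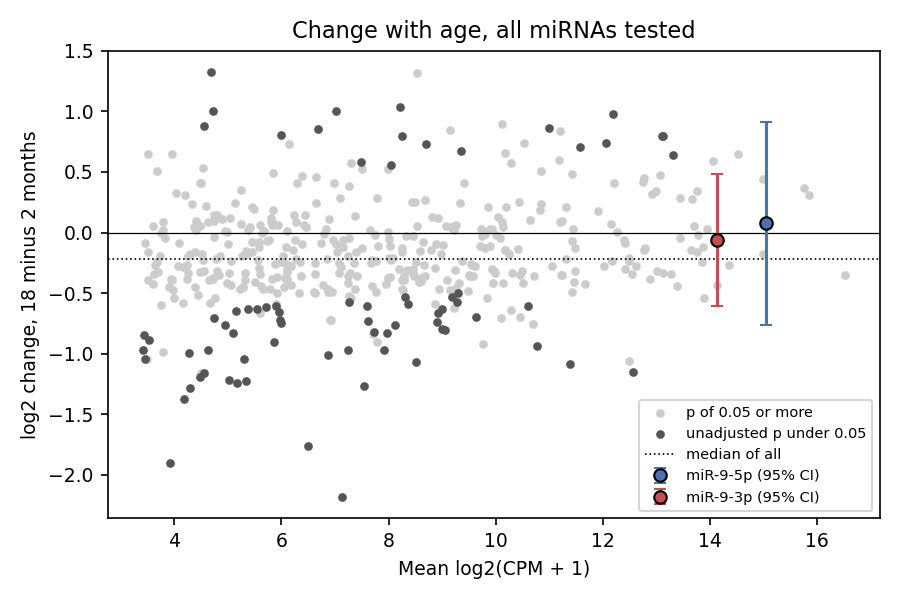
log2 change (18 minus 2 months) of the 456 miRNAs tested, against their mean log2(CPM + 1), with miRNAs of unadjusted p under 0.05 in dark grey, the median of all as a dotted line, and the arms of miR-9 with their 95% intervals from limma. Both intervals span 0 and the median of -0.22; after rescaling of the libraries the point of miR-9-3p moves from -0.06 to 0.15.

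The balance between the arms was the next question, since most hairpins keep mainly 1 strand. The ratio of miR-9-5p to miR-9-3p was 2.067 and 1.572 in the young libraries and 1.503 and 2.602 in the old libraries. The 5p arm was ahead in all 4 libraries, and the libraries with the most miR-9-5p also had the highest ratios. Over the 142 hairpins with both arms at 10 CPM or more, the less abundant arm came to a median of 13.3% of the more abundant arm, whereas miR-9-3p came to 51.6% of miR-9-5p. There were 24 hairpins, miR-9 among them, at least as balanced as this. No other less abundant arm had as many reads as miR-9-3p, and the next one stood at 2746 CPM.

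The arm ratio did not pass the test with age. Its log2 change was 0.13 (standard error 0.39, interval -0.84 to 1.11, adjusted p = 0.907 from limma over the 142 hairpins), and 3.52% of hairpins had an unadjusted p under 0.05. It was 0.33 without 2-month replicate 1 and 0.53 without 18-month replicate 1, and it turned negative without 2-month replicate 2 (-0.06) or 18-month replicate 2 (-0.26).

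miR-9-3p entered the RISC with 2 different 5′ ends in nearly equal amounts, and thus with 2 seeds. In the 2-month libraries 49.0% and 47.07% of its reads began at the RefSeq start and 50.62% and 52.18% began 1 base later. At 18 months the shares were 47.98% and 46.63% at the RefSeq start and 51.6% and 53% at the later start. The later start was thus slightly ahead in all 4 libraries, at ratios of 1.033, 1.109, 1.075 and 1.137. The most abundant forms of each start are shown because the 1-base step moves the seed; capitals again mark positions 2 to 8:
miR-9-3p, RefSeq start, 22 nt: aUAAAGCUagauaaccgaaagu
miR-9-3p, 1 base later, 21 nt: uAAAGCUAgauaaccgaaagu
miR-9-3p, 1 base later, 22 nt: uAAAGCUAgauaaccgaaagua
The first form stood at 8237.2 and 6166.1 CPM in the young libraries and at 6921.2 and 6333.1 CPM in the old libraries. The 21-nt form of the later start stood at 4869.1, 3896.1, 3977.7 and 4246.2 CPM in the same order, and its 22-nt form at 4143.5, 3001.9, 3894.4 and 3117.7 CPM. These 3 sequences held 81.4% of the CPM of the arm.

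The 5p arm had a much more uniform 5′ end. Between 92.53% and 93.68% of its reads began at the RefSeq start in each library, and 5.192% to 5.935% began 1 base later. Its leading forms are shown because they differ at the 3′ end alone, except the last, which is the most abundant form of the later start:
miR-9-5p, 21 nt: uCUUUGGUuaucuagcuguau
miR-9-5p, 23 nt: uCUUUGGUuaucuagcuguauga
miR-9-5p, 22 nt: uCUUUGGUuaucuagcuguaug
miR-9-5p, 1 base later, 22 nt: cUUUGGUUaucuagcuguauga
The 21-nt form stood at 14897 and 6525.2 CPM in the young libraries and at 9242.4 and 16927 CPM in the old libraries. The 23-nt form, the RefSeq sequence, stood at 11969, 7449.9, 7707.1 and 12687 CPM, and the 22-nt form at 8803.4, 6956.5, 5807.3 and 7048.9 CPM. The 21-nt and 23-nt forms were high in the libraries in which the arm was high, whereas the 22-nt form was about as low in 18-month replicate 2 as in 2-month replicate 2. The form with the later start stood at 1095.5, 656.77, 711.86 and 1023 CPM.

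**Figure D3:**
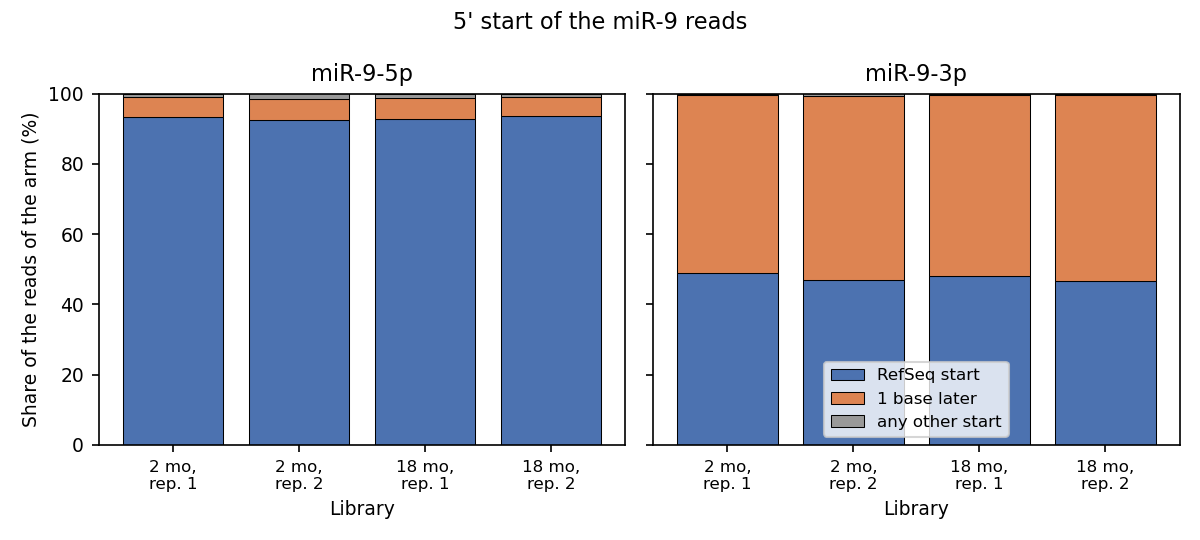
Share of the reads of each arm (%) by 5′ start in the 4 libraries, as stacked bars: RefSeq start, 1 base later, and any other start. For miR-9-3p the RefSeq start takes 46.63% to 49.0% and the later start 50.62% to 53%, whereas for miR-9-5p the RefSeq start takes at least 92.53%.

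Few abundant miRNAs were as divided in their 5′ ends as miR-9-3p. Reads without the most abundant 6mer seed of the name made up 48.3% of miR-9-3p and 7.09% of miR-9-5p, against a median of 3.21% over 273 miRNA names of at least 100 CPM. In that order miR-9-3p was 11th and miR-9-5p 86th. Among the 48 names of at least 5000 CPM, 3 passed 40%: miR-126a-3p (50.5%), miR-9-3p and miR-101a-3p (41.6%). The other two names were chosen for mention after their values were seen.

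**Figure D4:**
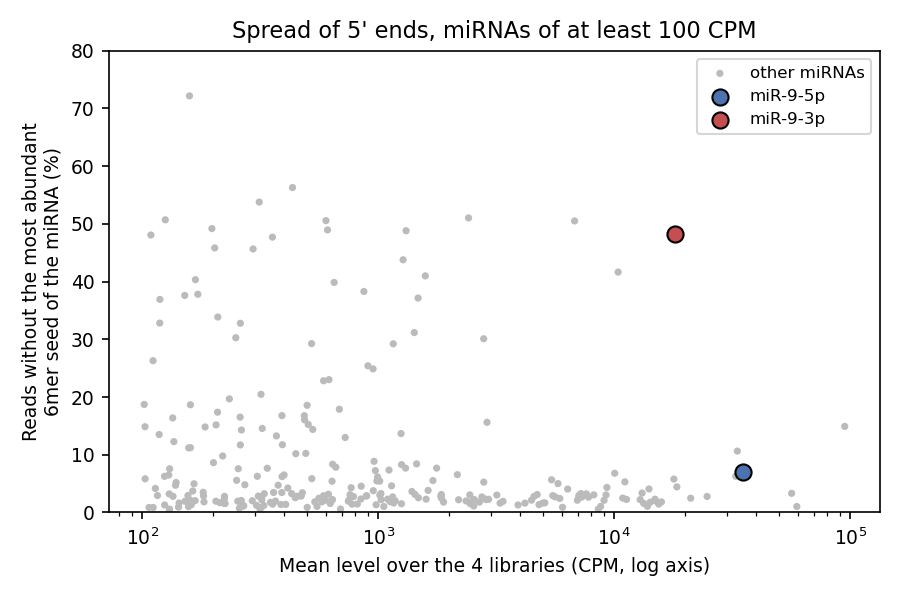
Share of reads without the most abundant 6mer seed of each miRNA (%), against the mean level over the 4 libraries (CPM, log axis), for 273 miRNA names. miR-9-3p lies at 48.3% and 18058 CPM, and miR-9-5p at 7.09% and 34977 CPM.

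The choice of 5′ start was not called as changed with age in either arm. The log2 ratio of other seeds to the main seed (for miR-9-3p, that of the later start) changed by -0.05 for miR-9-3p (standard error 0.11, interval -0.35 to 0.24, adjusted p = 0.915 from limma) and by -0.07 for miR-9-5p (standard error 0.13, interval -0.40 to 0.27, adjusted p = 0.905 from limma). Of the 273 names 4.03% had an unadjusted p under 0.05. That of miR-9-3p was -0.0060 without 2-month replicate 1, -0.10 without 2-month replicate 2, -0.09 without 18-month replicate 1 and -0.01 without 18-month replicate 2. The change of miR-9-5p was -0.14 without 2-month replicate 1 and -0.18 without 18-month replicate 1, and it took a positive sign without 2-month replicate 2 (0.0039) or 18-month replicate 2 (0.05).

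Each seed of miR-9 was close to being its own in these libraries, apart from the seed of the later start of miR-9-3p. The 6mer CUUUGG was 7th of 3925 seeds by reads, and 98.81% to 98.89% of its reads in each library were named miR-9-5p. For UAAAGC, the seed of the RefSeq start of miR-9-3p (25th of all seeds), 98.58% to 98.72% were named miR-9-3p. For AAAGCU, the seed of the later start (22nd of all seeds), the share was 88.69% to 90.68%, and most of the rest was miR-320-3p. That miRNA gave 1015.2 and 828.08 CPM in the young libraries and 1080.5 and 803.24 CPM in the old libraries with this seed, beside 10476, 8469.9, 9479.5 and 8927.5 CPM from miR-9-3p. Their leading forms are set together to show the shared 6mer, here with positions 2 to 7 in capitals:
miR-9-3p, 1 base later: uAAAGCUagauaaccgaaagu
miR-320-3p: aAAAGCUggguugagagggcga
Counted from 1 at the 5′ end of the form of miR-9-3p, the first bases differ (U1A) and so does the base that would extend the shared 6mer to a 7mer (A8G).

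The study ranks seeds by 6mer seed viability, the mean viability of 3 mouse cell lines after transfection of a short RNA with that seed, in percent of the control. By the deposited scores the seed of miR-9-5p had 60.9% and that of its later start 60.4%. The RefSeq start of miR-9-3p had 50.6% and its later start 54.3%, so the later start had the higher score. Weighted by CPM, the mean score of miR-9-5p was 61.06% and 61.17% in the young libraries and 61.1% and 61.06% in the old libraries. That of miR-9-3p was 52.54%, 52.68%, 52.58% and 52.62%. In every library miR-9-3p was lower than miR-9-5p.

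The 3′ ends showed another difference between the starts of miR-9-3p. Of the reads at the RefSeq start, 78.4% to 81.1% ended exactly at the RefSeq end and 8.14% to 9.51% ran 1 base further. Of the reads at the later start, 41.9% to 47.5% ended at the RefSeq end and 34.9% to 41.0% ran 1 base further. That next base is A in each hairpin, so a read cut 1 base later and a read with an added A cannot be told apart. The mean 3′ end was taken from whole reads, with tails counted in. That of the later start lay further along by 0.532, 0.602, 0.603 and 0.568 nt in the 4 libraries (2-month replicates first). For miR-9-5p the same displacement was 0.313, 0.293, 0.293 and 0.333 nt. A later start with a later end was common: 116 of 152 miRNA names with at least 10 CPM at the later start showed it in all 4 libraries, with a median of 0.243 nt. In the order of displacement miR-9-3p was 35th and miR-9-5p 66th.

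**Figure D5:**
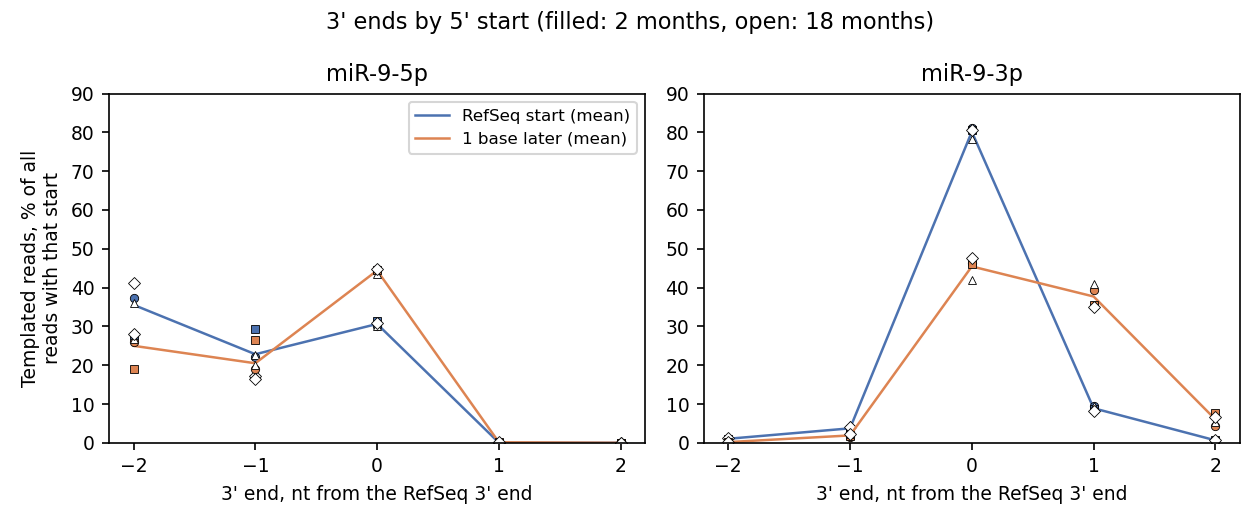
Share of the reads with a given 5′ start (%, templated reads only) by the position of their 3′ end relative to the RefSeq end (nt), for the RefSeq start (blue) and the start 1 base later (orange); markers are the 4 libraries and lines their means. In miR-9-3p the RefSeq start has a single peak at 0 of 78.4% to 81.1%, whereas the later start is divided between 0 (41.9% to 47.5%) and 1 base further (34.9% to 41.0%). The base after the RefSeq end of miR-9-3p is A, so an A added there counts as templated.

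Lengths of miR-9-5p varied more between libraries than those of miR-9-3p, of which 56.9% to 60.7% were 22 nt and 24.3% to 27.5% were 21 nt. Reads of 21 nt made up 38.3% and 29.7% of miR-9-5p in the young libraries and 38.4% and 42.1% in the old libraries, so that the ages did not overlap, although the replicates 1 nearly met (exact permutation p = 0.333, two-sided, the smallest that 2 libraries against 2 can give). Reads of 22 nt made up 24.2% and 30.9% in the young libraries and 24.7% and 19.4% in the old libraries. Those of 23 nt stayed between 31.1% and 33.4%. 2-month replicate 2 stood apart, with fewer 21-nt and more 22-nt reads than the others.

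The mean length of miR-9-5p reads with the main seed was 21.92 and 22 nt in the young libraries and 21.89 and 21.88 nt in the old libraries. The change of -0.08 nt (standard error 0.03, interval -0.17 to 0.02, unadjusted p = 0.0953 and adjusted p = 0.384 from limma) did not pass the threshold. It was -0.11 nt with an unadjusted p of 0.0173 (limma, fitted over all names) without 2-month replicate 1, and between -0.04 and -0.08 nt without any other library. Mean lengths moved in many miRNAs: 14.3% of 273 names had an unadjusted p under 0.05, with 2 longer and 37 shorter in the old libraries. For miR-9-3p the mean length with its main seed was 21.61 and 21.65 nt in the young libraries and 21.65 and 21.61 nt in the old libraries, a change of 0.0024 nt (adjusted p = 0.973 from limma). That value became -0.02 nt without 2-month replicate 1 or 18-month replicate 1.

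Most reads matched the hairpin to their last base, and an added base that matches it counts as templated. Templated reads made up 91.2% to 91.6% of miR-9-5p and 92.8% to 93.5% of miR-9-3p. Reads that left the hairpin only in their last bases (tails) made up 7.7% to 8.13% and 5.83% to 6.54%. Added bases and mismatches in the last bases are not told apart in this class. Of the tails counted, a single added U was the most common 1-base tail in both arms apart from 18-month replicate 1 of miR-9-5p. It was on 4.78% and 4.23% of miR-9-5p reads in the young libraries and on 3.09% and 4.51% in the old libraries. On miR-9-3p it was at 4.88%, 5.22%, 5.36% and 5.15%. The most abundant tailed form of each arm is shown with the seed in capitals; its last base is the added U:
miR-9-5p, 23 nt, tailed: uCUUUGGUuaucuagcuguaugu
miR-9-3p, 1 base later, 23 nt, tailed: uAAAGCUAgauaaccgaaaguau
They stood at 1714.9, 896.13, 704.39 and 1700.6 CPM and at 688.61, 622, 700.99 and 628.76 CPM in the 4 libraries.

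A single added A was on 2.48% and 2.5% of miR-9-5p reads in the young libraries and on 3.85% and 2.71% in the old libraries. The ages did not overlap (exact permutation p = 0.333, two-sided), and 18-month replicate 1 was well above the rest. On miR-9-3p the share counted was 0.332% and 0.355% in the young libraries and 0.39% and 0.367% in the old libraries. The base after the 3p arm is A in each hairpin, so an A added at the RefSeq end counts as templated. Such reads are not in this share. Of the 112 measures per library compared in this way, many of which are shares of the same reads, 26 did not overlap between the ages. Their smallest exact permutation p was 0.333, or 1 after Benjamini-Hochberg adjustment. With 2 libraries against 2, the ages do not overlap in a share of 0.333 of all arrangements, and 26 of 112 lies below that share.

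None of the 12 sequences named by rule, which include the miR-9 forms shown above, was called as changed with age. Of the sequences with means of 1 CPM or more, 136 of miR-9-5p and 97 of miR-9-3p were tested, and they held 99.7% of the CPM of each arm. At an unadjusted p under 0.05, 3 sequences of miR-9-5p were higher and 1 lower in the old libraries (2.94%), and 2 of miR-9-3p were higher and 1 lower (3.09%), against 10.1% of all sequences tested. The called sequences had means of 1.3 to 13.5 CPM and together held 0.0625% of miR-9-5p and 0.0426% of miR-9-3p. After adjustment over all 14287 sequences no miR-9 sequence passed (lowest adjusted p = 0.379 from limma). After rescaling of the libraries the number with an unadjusted p under 0.05 was 14 in place of 7. The 10.1% of all sequences belongs to the fit without rescaling and is no background for this number. Of the 5 leading forms of each arm the largest log2 change was that of the 21-nt form of miR-9-5p, 0.34 (standard error 0.41, adjusted p = 0.809 from limma), and the lowest was -0.29 for its 22-nt form (standard error 0.26, adjusted p = 0.728 from limma). After rescaling these were 0.56 and -0.08. With 1 library left out, that of the 21-nt form ranged from -0.25 (without 2-month replicate 2) to 0.94 (without 2-month replicate 1, where its unadjusted p from limma was 0.0475 and so passed the threshold), and that of the 22-nt form from -0.46 (without 2-month replicate 2) to -0.12 (without 2-month replicate 1).

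Very few reads could be traced to a gene. Reads that match all 3 hairpins made up 91.12% to 91.39% of miR-9-5p and 88.55% to 91.0% of miR-9-3p. Mir9-3 differs from the other two hairpins in the base before the 5p arm and in the second base after the 3p arm, which gives these forms, shown because only Mir9-3 holds them (capitals mark positions 2 to 8):
miR-9-5p, 1 base earlier, 22 nt: cUCUUUGGuuaucuagcuguau
miR-9-3p, 1 base later, 23 nt: uAAAGCUAgauaaccgaaaguag
The first stood at 9.061 and 9.483 CPM in the young libraries and at 8.321 and 11.801 CPM in the old libraries. The other stood at 14.974, 18.175, 23.735 and 14.889 CPM. All templated miR-9-5p reads particular to Mir9-3 came to 19.93, 28.45, 19.2 and 28.45 CPM, near the 26.32, 19.23, 18.91 and 27.79 CPM of reads that match Mir9-1 or Mir9-2 but not Mir9-3. On the 3p side the values were 18.79, 20.46, 27.33 and 18.86 CPM for Mir9-3, against 507.3, 702, 556.1 and 628.5 CPM for the others. On that side a read of Mir9-1 or Mir9-2 ends in the same letter as a Mir9-3 read with an added A, and these cannot be told apart. In turn, a read of Mir9-1 or Mir9-2 that ends 1 base after the arm and has an added G equals the Mir9-3 form. That form held 0.0994% of the arm, and counted 1-base tails of G were on 0.0741% to 0.114% of miR-9-3p reads. On the 5p side no hairpin has U or G before the arm, but 22-nt reads with these bases there occurred. In log2(CPM + 1) the form with U stood at 2.77, 1.99, 2.23 and 3.51. That with G stood at 2.24, 2.23, 1.97 and 2.52, and the Mir9-3 form, with C, at 3.33, 3.39, 3.22 and 3.68. Whether the C of a 5p read came from Mir9-3 cannot be told. The reads assigned to Mir9-3 or to the other hairpins held at most 4.32% of an arm in any library, and they do not give the output of the genes.

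Reads on the miR-9 hairpins also occurred without a miRNA name. They came to 962.8 and 645.8 CPM in the young libraries and to 748.2 and 960.8 CPM in the old libraries, in 695 sequences that held 1.54% of the CPM on these hairpins. Of these, 453 sequences differed from the hairpin at exactly 1 base and held 79.7% of that CPM. The antisense miR-9b-5p stood at 1.81, 1.84, 1.32 and 2.76 CPM. miR-9b-3p stood at 0.572, 0.263 and 0.378 CPM and had no read in 18-month replicate 2, which allows up to 0.331 CPM.

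By the distance between patterns over the 4 libraries (log2(CPM + 1) less its mean, 272 other miRNAs of at least 100 CPM), those nearest to miR-9-5p were miR-15a-5p (0.265), miR-497a-5p (0.337) and miR-27a-3p (0.341). miR-15a-5p stood at 4247.6 and 3077.5 CPM in the young libraries and at 3485.2 and 4823.9 CPM in the old libraries, high in the same libraries as miR-9-5p. Nearest to miR-9-3p were miR-23b-3p (0.0831), miR-181c-3p (0.0999) and miR-126a-5p (0.12). miR-23b-3p stood at 12385, 10163, 11728 and 10060 CPM. With 4 points a pattern is a description and was not tested.

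A list of 12 brain-enriched miRNAs was looked up, and all were present. Presence does not test the tissue label, since all 7 epithelial and sensory and all 5 immune miRNAs looked up were present too. The list was led by miR-124-3p at 104110 and 107030 CPM in the young libraries and 98222 and 69405 CPM in the old libraries. At an unadjusted p under 0.05 in limma, none of these 12 was called higher and 3 lower in the old libraries: miR-149-5p (log2 change -0.81), miR-7a-5p (-0.57) and miR-7b-5p (-0.74). Of all 456 miRNAs tested, 19 were called higher and 55 lower, 16.2% in all. The median change of the list was -0.35 beside -0.22 for all miRNAs. After rescaling none of the 12 was called, against 39 higher and 25 lower of all miRNAs, and the median of the list was -0.14. miR-128-3p, a neuronal miRNA, had a log2 change of 0.37 and miR-132-3p, which responds to neuronal activity, one of -0.18, neither called. The remaining members had changes of -0.27 to -0.44: miR-153-3p, miR-218-5p, miR-137-3p, miR-135a-5p, miR-129-5p and miR-138-5p. Of 9 miRNAs known to act beside miR-9 in neural fate, such as let-7b-5p, which like miR-9-5p targets TLX, none was called in either direction, with a median of -0.24.

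Markers of other cell types moved in part with age, in a fit that called 16.2% of all miRNAs tested. 7 miRNAs of the miR-200 and miR-183 groups, known from epithelial and sensory cells, summed to 31138 and 53857 CPM in the young libraries and to 66064 and 71554 CPM in the old libraries, with 6 called higher and none lower (median 0.79) and 7 called higher after rescaling. The endothelial pair summed to 12243 and 11472 CPM and to 5421.9 and 8989.6 CPM, with miR-126a-3p called lower in CPM and not after rescaling. Its other member, miR-126a-5p, stood at 3000.3, 2617.9, 2865.1 and 2500.7 CPM (log2 change -0.07) and was not called. Of the oligodendrocyte (3 tested), smooth muscle (2), red blood cell (2), immune (4) and choroid plexus (1) miRNAs none was called. The oligodendrocyte miRNAs summed to 7960.5 and 11603 CPM in the young libraries and to 6183.1 and 9981.2 CPM in the old libraries. The sum was lower in replicate 1 of each age than in replicate 2, but its members did not share this pattern. In the young libraries only miR-219a-5p was lower in replicate 1 (1395.8 against 6423.1 CPM). There miR-338-3p (5679.1 against 4390.7 CPM) and miR-219a-2-3p (885.64 against 789.45 CPM) were higher in replicate 1. In the old libraries miR-219a-5p and miR-338-3p were lower in replicate 1, and miR-219a-2-3p was higher (886.71 against 822.32 CPM). CPM are shares of a library, and the part of these sums in the levels of miR-9 was not tested.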

How the data were processed

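Ago-RP-Seq data of 4 mouse brain libraries were used, 2 per age, grouped by the sample labels. The authors trimmed the reads (Trim Galore per the labels, version not given in the sources used here), put all libraries in 1 table without the rarest reads, named sequences by BLAST against mouse small RNAs and deposited CPM, read counts scaled to the same total in each library. The authors also gave a score for the seed of every sequence, the mean 6mer seed viability of 3 mouse cell lines in percent of the control. Names refer to build mm9 in the study's methods. Coordinates and sequences here are from RefSeq and GENCODE on GRCm38, to which both members matched. The amount of tissue is 250 mg in the labels and differs in the methods. Whole reads were recovered by dividing CPM by the worth of 1 read (100% whole within 0.001 CPM), and 3 reads were worth 0.263 to 0.331 CPM.

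miRNAs were summed by name. limma (version 3.58.1, with trend, two-sided, age as the only covariate) was fitted to log2(CPM + 1) for miRNAs of at least 10 CPM and sequences of at least 1 CPM, to the log2 arm ratio (both arms at least 10 CPM), and to the log2 ratio of other seeds to the main seed and the mean read length (at least 100 CPM), with Benjamini-Hochberg adjustment. The methods name no test for single rows. Single values of a library were compared by exact permutation. Read classes came from comparison with the 3 hairpins. Templated reads matched over their whole length. Tailed reads matched up to their last 1 to 3 bases, so a mismatch in those bases also counts as a tail. Scripts were tested on simulated data with 4-fold changes, where 92.5% to 100% were recovered and 2.94% to 6.03% of unchanged features were called. Sequences were simulated independently with a dispersion (spread beyond counting error) of 0.05 and no shift between libraries. The edgeR estimate for the real sequences was 0.121, so these rates do not carry over to the real libraries. The alternatives tried were a replicate block, other pseudocounts and filters, no trend, rescaling, edgeR (4.0.16) and DESeq2 (1.42.0) on recovered reads, other sets of sequences, and each library left out.

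The members and lists were chosen with earlier results of these data known. Named sequences are the 5 most abundant of each arm, the leading form of each 5′ start of at least 1% of the arm, the leading form particular to 1 hairpin, and any with an adjusted p under 0.05. Other miRNAs named are the 3 nearest patterns to each arm, the brain-enriched list and RNAs that share a main seed at 100 CPM or more.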

Additional observations from a re-analysis of the deposited data

How the results depend on the processing

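No alternative gave either arm of miR-9 or its arm ratio a call with age. The log2 change of miR-9-3p turned to 0.1531 after rescaling by the median of ratios, 0.1583 in edgeR and 0.1476 in DESeq2. After the same rescaling 5 leading forms changed sign: the tailed form of miR-9-5p (0.03231), the 22-nt (0.1057) and 23-nt (0.1018) forms of the RefSeq start of miR-9-3p, and the 21-nt (0.1282) and 22-nt (0.1945) forms of its later start. The 22-nt form of miR-9-5p went to -0.07854. CPM are shares of a library, and rescaling moves all features together. The number of miR-9 sequences called was 7 of 233 tested, beside 1443 of all 14287 sequences. With no filter it was 23 of 749, beside 3327 of all 85704. It was 1 at a minimum of 10 CPM, beside 424 of all 3141, and 3 in DESeq2, beside 941 of all sequences. After rescaling it was 14. The number over all sequences is not given here for that setting, so the 14 is not read as a result about miR-9. Over all features, miRNA levels called numbered 125 with no filter and 43 at 100 CPM, sequences 3327 with no filter, 424 at 10 CPM and 941 in DESeq2, arm ratios 9 with a pseudocount of 5 CPM and 3 at 100 CPM, seed ratios 23 at 10 CPM and 5 at 1000 CPM, and lengths 16 at 1000 CPM; these filters change how many features are tested. The replicate numbers are shared labels only (the correlation of same-numbered deviations over 456 miRNAs was 0.18, with 2 pairs). The replicate block left the changes of miR-9 as they were (0.07459 and -0.05894 for the arm levels) and called 15 arm ratios and 27 seed ratios over all features.

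When 1 library was left out, the lone library of an age was assumed to vary like the others. The log2 change then ranged from -0.2981 to 0.4473 for miR-9-5p, -0.2343 to 0.1164 for miR-9-3p, -0.262 to 0.5291 for the arm ratio, -0.1782 to 0.04558 for the seed ratio of miR-9-5p, -0.09672 to -0.00603 for that of miR-9-3p, and the length change from -0.113 to -0.03798 nt for miR-9-5p and -0.02081 to 0.02564 nt for miR-9-3p. For the forms of miR-9-5p the range was -0.2521 to 0.9386 (21 nt), -0.4604 to -0.1207 (22 nt), -0.293 to 0.426 (23 nt), -0.8147 to 0.4557 (tailed), -0.3599 to 0.3773 (later start) and -0.1399 to 0.3178 (Mir9-3 form). For miR-9-3p it was -0.3152 to 0.1026 (22 nt) and -0.378 to 0.1581 (23 nt) at the RefSeq start, and -0.2446 to 0.07698 (21 nt), -0.2498 to 0.215 (22 nt), -0.0577 to 0.09894 (tailed) and -0.1394 to 0.4991 (Mir9-3 form) at the later start. Calls ranged from 5 to 17 for miR-9 sequences and, over all features, from 1 to 11 for arm ratios, 9 to 27 for seed ratios and 22 to 38 for lengths. The cause of these differences was not tested. Depth limits the forms particular to 1 hairpin, since 3 reads are worth 0.263 to 0.331 CPM, whereas for the arms the spread between libraries is far wider than the counting error.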
